A study of Lathyrus oleraceus with 6 samples.

Results

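The loci described here are 5 peroxidase loci of pea, Psat6g159360, Psat2g068760, Psat6g099960, Psat7g177240 and Psat7g177200, out of 44756 loci in the count table. They were chosen by their rise in the contrast of CO8-DA with the control, from the peroxidases that the study lists as increased, so that rise is given as a description without a test. Of the 5, Psat2g068760 and Psat6g099960 hold the same value in every library and count as 1 measurement, which leaves 4 distinct measurements. The best database match of Psat6g159360, Psat2g068760 and Psat6g099960 is a cationic peroxidase, and that of Psat7g177240 and Psat7g177200 a lignin-forming anionic peroxidase. By their identifiers 1 locus lies on chromosome 2, 2 lie on chromosome 6 and 2 on chromosome 7. Coordinates and sequences of these loci were not used here.

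Peroxidases of this plant family, class III, are secreted heme enzymes that use hydrogen peroxide to oxidize phenolic compounds. In the cell wall they turn monolignols into radicals that couple to lignin, and they cross-link wall proteins and other phenolics, which makes walls harder to penetrate. Plant genomes hold many copies, often side by side, and cationic and anionic members are named after the net charge of the protein. Chitin fragments are a fungal signal that plants perceive through LysM receptors, and peroxidases are among the defence genes commonly followed after such elicitors.

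The 6 RNA-seq libraries came from roots of wild-type pea seedlings, cultivar Frisson, aged 4 to 5 days. In the control group, 3 libraries, seedlings stood for 24 h in 0.5x Jensen's medium, and in the CO8-DA group, 3 libraries, the same medium held 1e-05 M CO8-DA, deacetylated chitooligosaccharides of mainly around 8 sugar units. According to the methods each replicate pooled the roots of 3 to 4 plants and was an independent biological repeat, and all libraries shared a sequencing lane. The libraries held estimated counts with totals of 12315774 to 19534336. Levels are given as CPM on the TMM scale, the rounded count of a locus scaled to a common library size after edgeR's correction for composition. CPM were not divided by gene length, so levels are compared between libraries and not between loci. In bulk roots, more cells of a type and more RNA per cell cannot be told apart. The root label was not checked against markers, because no table used here names such genes among these identifiers.

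Across the whole table, edgeR's quasi-likelihood test with thresholds of 0.05 on the adjusted p and 1 on the size of the log2 change called 3.13% of the 21293 tested loci, 2.63% higher and 0.493% lower after CO8-DA. Among the 5 members 4 were tested and all 4 were called higher, as the choice of members fixes. The fifth, Psat7g177200, had too few counts for the filter. It was called higher by DESeq2 and by edgeR without the filter, which called 2.44% and 2.13% of their loci higher. At all 5 loci the lowest treated library exceeded the highest control, which held for 13.7% of the tested loci. Nothing about the members is read from these counts.

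The cationic peroxidase Psat6g159360 was close to undetected in the control. Its estimated counts were 1, 0 and 1.65 in control replicates 1, 2 and 3 and 35.82, 60.9 and 40.76 in CO8-DA replicates 1, 2 and 3. On the CPM scale, which uses the rounded counts, this is 0.0678, 0 and 0.143 in the control and 2.81, 3.83 and 2.10 after CO8-DA. The groups were far apart, with the lowest CO8-DA library 14.7-fold above the highest control library. Within the CO8-DA group the highest library, replicate 2, stood 1.83-fold above the lowest, replicate 3. The fitted log2 fold change was 5.16 (standard error 0.59), and 36 of the tested loci had a larger one. With 3 rounded counts in the control against 138, the ratio of the groups was 39.1 with an exact counting interval at 95% of 13.1 to 192, which covers counting error only.

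Psat2g068760 and Psat6g099960, the other cationic peroxidases, carried identical estimates of 23.5, 3 and 23.5 counts in the control and 116, 149.5 and 187 after CO8-DA. Estimates that end in 0.5 at both loci show how RSEM, the counting program, divided reads that fit them equally well. Summed over both, the reads were whole numbers, 47, 6 and 47 in the control and 232, 299 and 374 after CO8-DA. Identical estimates are rare at this depth. Of 20058 loci with a total of at least 100 counts, 29 belong to the 12 sets that share all 6 values. Which of the 2 loci, on chromosomes 2 and 6, was transcribed cannot be told apart from these counts.

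The level of this pair in CPM per locus was 1.63, 0.245 and 1.71 in the control and 9.05, 9.42 and 9.57 after CO8-DA. The treated libraries lay close together, with a coefficient of variation of 2.85%, while the control libraries varied by 69.0%. Control replicate 2 stood well below the other control libraries, which were near each other. The log2 fold change was 2.93 (standard error 0.46), the smallest rise among the members that could be tested. Testing the summed reads as a single locus gave 2.96, close to the value for either locus.

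The lignin-forming anionic peroxidase Psat7g177240 had 6, 0 and 2 counts in the control and 83, 75 and 47 after CO8-DA. All its estimates were whole numbers, so no division of reads with another locus was visible. In CPM the control libraries were at 0.407, 0 and 0.143 and the CO8-DA libraries at 6.48, 4.71 and 2.4. Here the treated libraries spread more than those of any other member, with replicate 1 2.69-fold above replicate 3. The lowest CO8-DA library was still 5.91-fold above the highest control library. The log2 fold change was 4.48 (standard error 0.69).

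Psat7g177200, also described as a lignin-forming anionic peroxidase, is the locus numbered next to Psat7g177240. It had no count in any control library and 7, 7 and 9 counts after CO8-DA, or 0.546, 0.440 and 0.460 CPM. With 3 counts in the summed control libraries as the floor, 0.0732 CPM, the level in the summed treated libraries was 6.51-fold above it. This takes the 23 treated counts as exact and leaves out variation between libraries. At this depth a control level below the floor could have been missed. The counts of Psat7g177240 were 11.9, 10.7 and 5.22 times those of Psat7g177200 in CO8-DA replicates 1, 2 and 3, so the low level of the former in replicate 3 was not shared by the latter, whose 9 counts there are few.

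**Figure D1:**
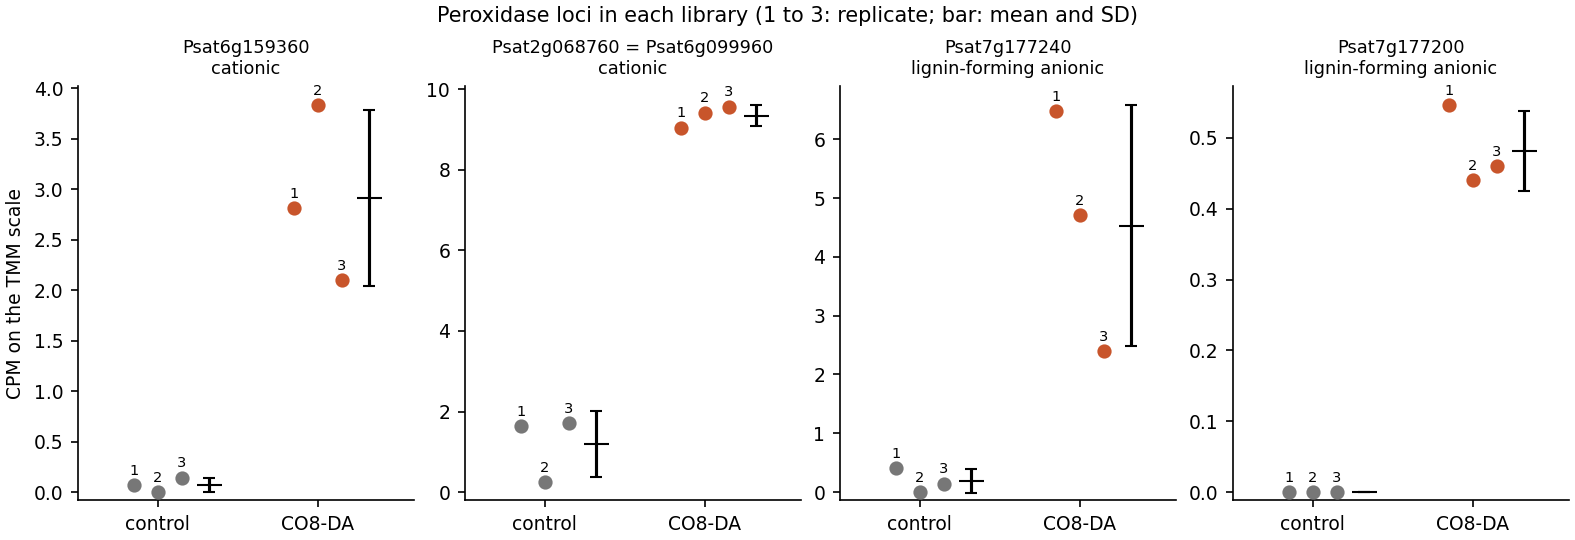
Level of each peroxidase measurement in CPM on the TMM scale (vertical axis, a scale of its own in each panel) in the 3 control libraries (grey) and the 3 CO8-DA libraries (orange), numbered by replicate, with the mean and SD as a black bar. The groups do not overlap in any panel, the pair Psat2g068760 and Psat6g099960 is tight after CO8-DA at 9.05 to 9.57, and Psat7g177240 spreads from 2.4 to 6.48.

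The members did not rank the CO8-DA libraries in the same way. Replicate 2 was highest for Psat6g159360, replicate 3 for Psat2g068760 with Psat6g099960, and replicate 1 for both anionic loci. In the control they did share a feature, since replicate 2 was lowest at each of the 3 measurements that had any control count. This was common among rising loci, as control replicate 2 was lowest at 67.7% of the 561 loci called higher and at 35.4% of all tested loci. It is also the library with the smallest total, and whether depth has a part in this was not tested. Without control replicate 2 the log2 fold change was 2.48 for the pair, 3.97 for Psat7g177240 and 4.69 for Psat6g159360, for each the lowest among the fits with 1 library left out. Over the 6 libraries the log2 CPM of the tested members correlated with each other at Pearson's r of 0.94 to 0.96, a description over libraries that share the group difference for which the members were chosen.

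The size of the fitted rise depended on single control libraries. For Psat6g159360 it lay between 4.41 and 6.01 on the log2 scale over 17 alternatives, and the high end came without control replicate 3, where the control counts left were 1 and 0, so this value comes from the fit and does not bound the fold. For Psat7g177240 it was 5.73 without control replicate 1, the control library with most of its counts. For the pair it was 2.95, 2.92 and 2.91 without CO8-DA replicate 1, 2 and 3, close to the 2.93 with all libraries. These values describe the size only, since the members were chosen by their rise in the same libraries.

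**Figure D2:**
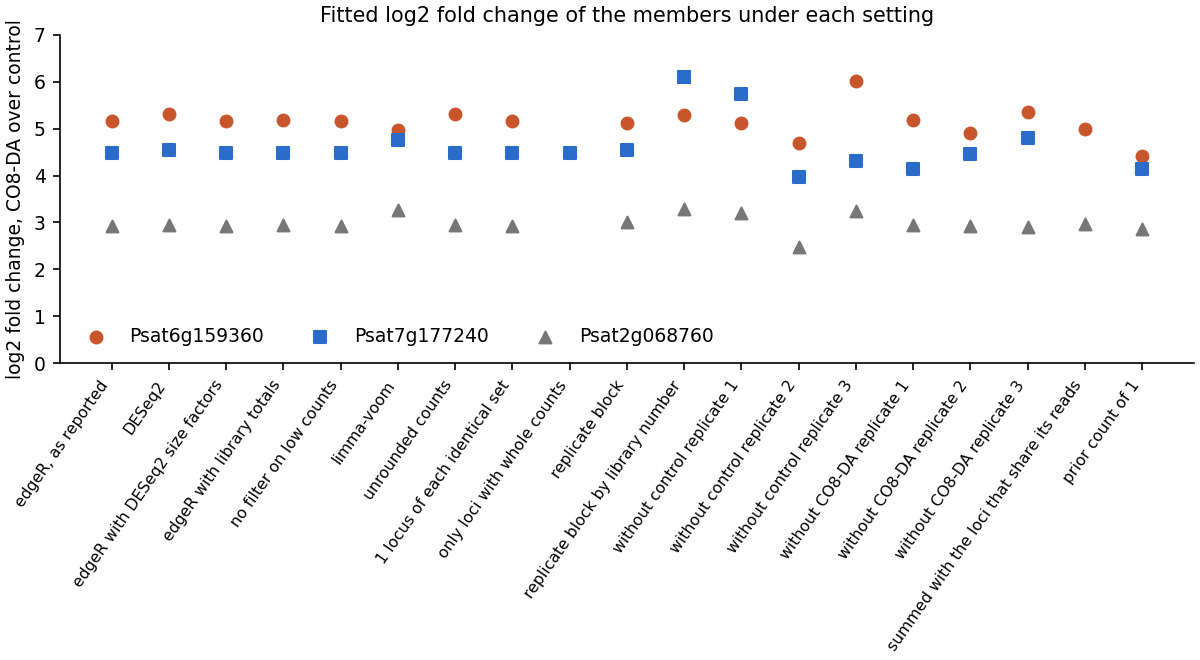
Fitted log2 fold change of CO8-DA over control (vertical axis) for Psat6g159360 (circles), Psat7g177240 (squares) and Psat2g068760 with its identical partner (triangles) under each setting on the horizontal axis. The pair lies between 2.48 and 3.29, and the highest values are 6.01 for Psat6g159360 and 6.09 for Psat7g177240.

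Psat6g159360 belongs to a group of similar loci on chromosome 6. Its neighbour at the preceding place, Psat6g159320, and Psat6g159680, 8 places further on, are also described as cationic peroxidases, the latter by the same best database match as Psat6g159360. Each of the 3 loci has estimates that are not whole, yet their sum is a whole number in all 6 libraries, within 0.005. Reads were therefore divided among these 3 loci, and no part of their sum shows reads divided with a further one. The summed counts were 2, 1 and 3 in the control and 65, 108 and 58 after treatment. All 6 control reads together stand against 231 after treatment, a mean of 0.144 ± 0.0668 CPM against 4.94 ± 1.91 CPM (SD, n = 3).

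Within that sum Psat6g159360 held the largest part, 55.1%, 56.4% and 70.3% in CO8-DA replicates 1, 2 and 3. Psat6g159680 held 41.2%, 26.4% and 26.3%. Psat6g159320 held 3.66% and 3.45% in replicates 1 and 3 but 17.3% in replicate 2, where its estimate was 18.64 counts against 2.38 and 2 in the other treated libraries. That locus did not pass the filter on low counts. Tested as a single locus, the summed reads gave a log2 fold change of 5.00, close to that of Psat6g159360 alone, an alternative chosen after the counts had been seen.

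**Figure D3:**
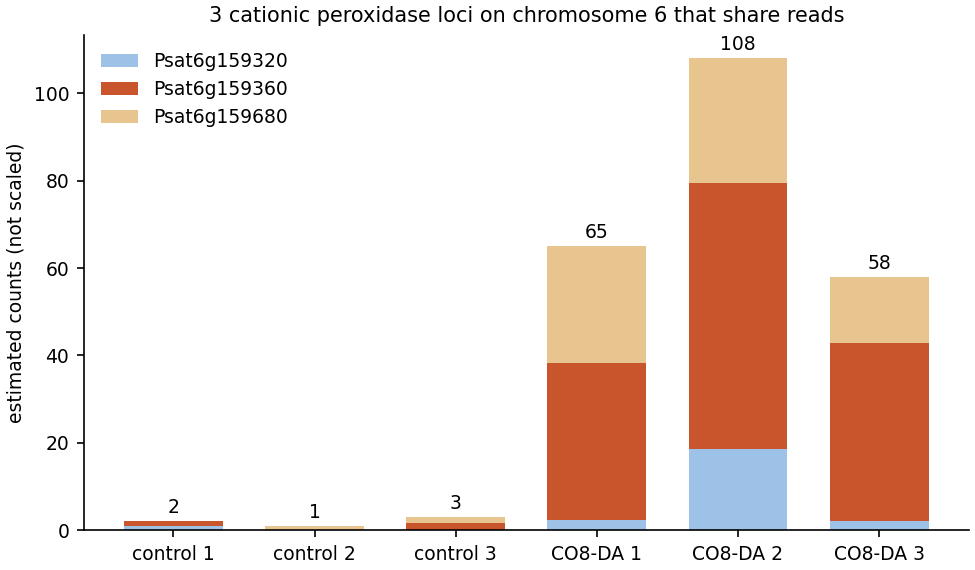
Estimated counts, not scaled to the library total (vertical axis), of the cationic peroxidase loci Psat6g159320, Psat6g159360 and Psat6g159680 stacked for each of the 6 libraries, with the summed count above each bar. The sums are 2, 1 and 3 in the control and 65, 108 and 58 after CO8-DA, and Psat6g159360 is the largest part of each treated bar.

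The loci numbered around the members were not chosen for their response and could be tested. Within 10 places on each side there were 80 such loci, of which 27 had no counts, 9 had too few and 44 were tested. EdgeR called 4 of the 44 higher, which is 9.09% beside 2.63% called higher over the whole table, and 0 lower, where 0.493% of the whole table were. DESeq2 called the same numbers, and at an unadjusted p under 0.05 edgeR had 6 higher and 6 lower. Without control replicate 3 or CO8-DA replicate 2 the number called was 2. Their median log2 fold change was 0.06, against -0.01 over all tested loci. The members thus stood among loci that mostly did not pass the test. With so few calls the share is given as a count, and loci that share reads with a member are not independent of it.

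Of the 4 called neighbours, 3 lie around Psat6g159360. Psat6g159680, the cationic peroxidase that shares its reads, had 0, 1 and 1.35 counts in the control and 26.8, 28.46 and 15.24 after CO8-DA, so that the rounded sums stood at a ratio of 29.7 (exact counting interval 7.93 to 250, edgeR adjusted p = 0.0140). It did not pass without control replicate 3, nor without treated replicate 1 or 2 (highest adjusted p 0.0603). Psat6g159600, described only as a hypothetical protein, lies between the cationic peroxidases. It had 9, 6 and 11 counts in the control and 169, 119 and 176 after CO8-DA, all whole numbers, which edgeR fitted as 3.94 ± 0.32 (log2, standard error) with an adjusted p of 0.000751. It was called with any 1 library left out. Psat6g159040, described as a B-type ABC transporter, a class of membrane pumps, averaged 58.3 ± 15.2 CPM without and 118 ± 8.78 CPM with CO8-DA (SD, n = 3), or 1.01 on the log2 scale (edgeR adjusted p = 0.0196). It just passed the fold threshold, and was called only without control replicate 1 among the 6 fits that leave 1 library out (adjusted p up to 0.0914).

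The remaining called neighbour, Psat6g099840, lies 3 places before Psat6g099960 and is described as a nodulin MtN21/EamA-like transporter. It had 2, 8 and 8 counts in the control and 65, 115 and 125 after CO8-DA, which edgeR fitted as 3.79 ± 0.42 (log2, standard error) with an adjusted p of 0.00293, and was called with any 1 library left out. Around Psat2g068760 and around the anionic pair on chromosome 7 no neighbour was called by edgeR or DESeq2, out of 6 and 12 tested. At an unadjusted p under 0.05 edgeR had 1 higher and 0 lower around Psat2g068760, and 0 higher and 3 lower around the anionic pair. The locus just before Psat7g177200, Psat7g177120, moved opposite to the members without passing the test. Its estimated counts were 229.74, 459.97 and 244.11 in the control and 65.39, 15.65 and 3.01 after CO8-DA, which edgeR fitted as -3.61 ± 0.84 (log2, standard error) with an adjusted p of 0.0549. Without the filter on low counts it passed in edgeR at an adjusted p of 0.0288, but not in DESeq2, where that p was 0.0523 after adjustment. It was picked out after its values were seen, and its description was not used here.

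**Figure D4:**
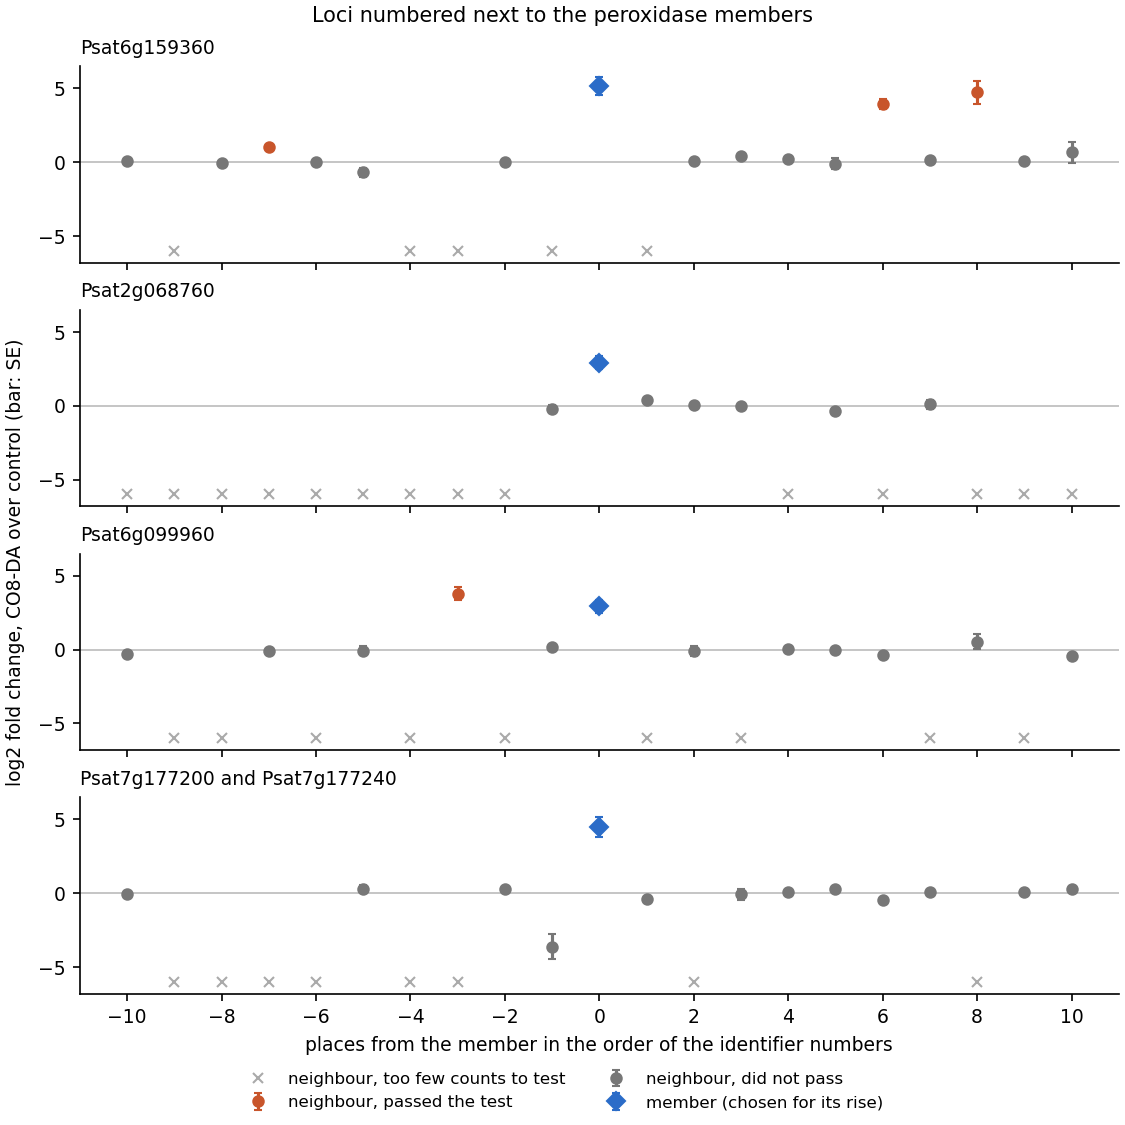
Log2 fold change of CO8-DA over control with its standard error (vertical axis) for loci up to 10 places from each member in the order of the identifier numbers (horizontal axis), with members as blue diamonds, neighbours that passed the test in orange and those that did not in grey. Crosses at the foot of each panel mark loci with too few counts and have no fold change. Most neighbours lie near 0, with Psat6g159600 at 3.94 and Psat6g099840 at 3.79 standing out.

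Other peroxidases went both ways. The study's list of changed genes holds 17 further loci described as peroxidases, and since that list was made on these samples their counts are no independent evidence of direction. EdgeR called 5 of them higher and 10 lower and left 2 uncalled, and the list had a median of -1.34 on the log2 scale. The number higher was 2 without control replicate 3, 0 without CO8-DA replicate 1 or 2 and 1 without CO8-DA replicate 3. The number lower was 5 without control replicate 3, 4 without CO8-DA replicate 2 and 3 without CO8-DA replicate 3. In each of these edgeR fits 5 were higher and 12 lower at an unadjusted p under 0.05. Among the higher loci the largest rises were those of Psat6g159680, already described, and Psat1g168800, described as peroxidase E5-like. Psat1g168800 had 1, 1 and 35 counts in the control and 240, 212 and 306 after CO8-DA, which edgeR fitted as 4.13 ± 0.80 (log2, standard error) with an adjusted p of 0.0276. Its control libraries disagree widely, and the call was lost without control replicate 2 or any 1 of the CO8-DA libraries (adjusted p up to 0.107). Without control replicate 3 its log2 fold change was 7.59.

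The lower loci included Psat7g229840 and Psat4g002080, with log2 fold changes of -4.82 and -4.58 (edgeR adjusted p = 0.00868 and 0.0258). The call of Psat7g229840 was lost without CO8-DA replicate 3 (adjusted p = 0.0568), and that of Psat4g002080 when control replicate 2 or 3, or treated replicate 2 or 3, was left out (highest adjusted p 0.121). Of the CPM summed over the 5 members and the 17 others, the members held between 0.0527% and 0.358% in the control libraries. After CO8-DA they held between 3.63% and 4.87%. These are shares of reads, not corrected for gene length, and the divided reads of the identical pair add up to their sum at the 2 loci. The summed CPM of all 22 loci went from 1180, 929 and 1040 in the control to 704, 572 and 664 after CO8-DA. All 22 are from the study's list of changed genes, not the whole family. Of this sum Psat7g198640, the locus with the highest level, held 615, 391 and 420 CPM in the control and 221, 181 and 226 after CO8-DA. Its call as lower was kept in 2 of the 6 fits that leave 1 library out (edgeR adjusted p up to 0.0674).

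**Figure D5:**
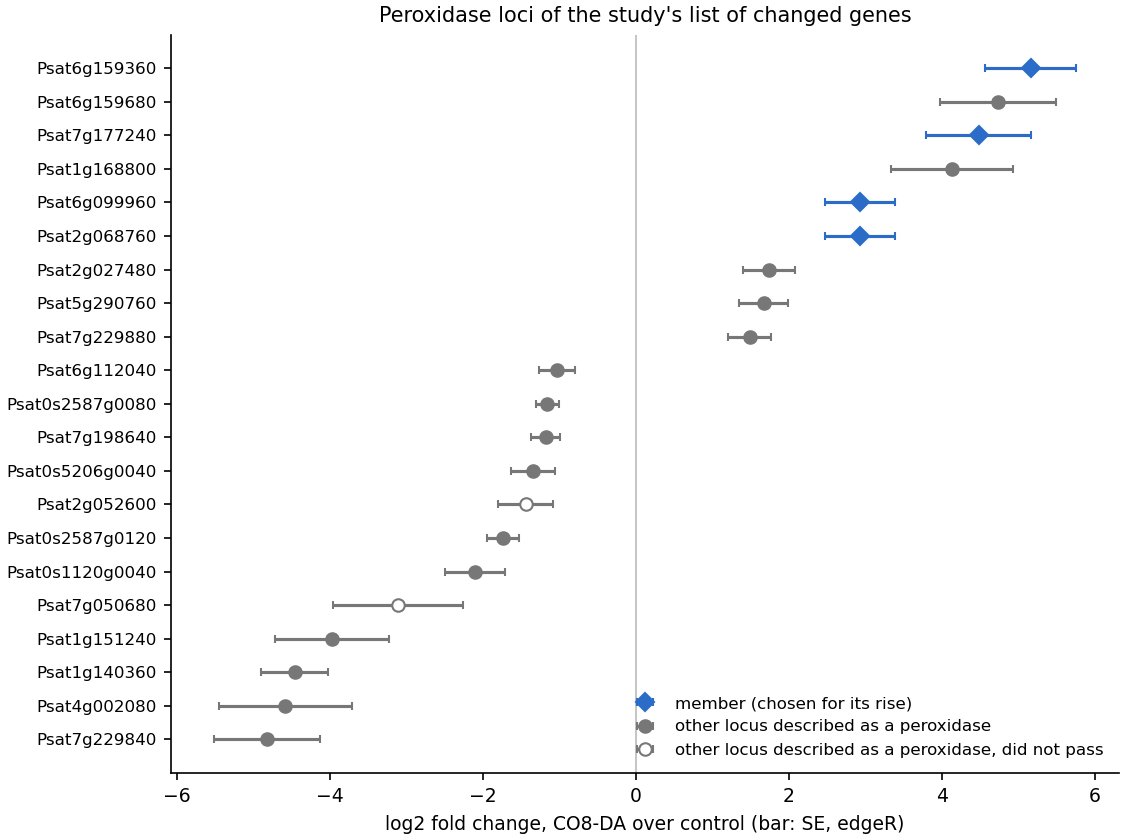
Log2 fold change of CO8-DA over control with its standard error from edgeR (horizontal axis) for the 4 tested members (blue diamonds) and the 17 other loci described as peroxidases (grey circles, open where the test was not passed), 1 locus per line. The members lie between 2.93 and 5.16, and the others reach from -4.82 to 4.73.

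Peroxidases need hydrogen peroxide and phenolic substrates, so loci of the study's list linked by keyword to phenolics or oxidants were counted. The same limit on independence holds. The lists do not measure the supply of a substrate, since the first also holds a laccase, dirigent, disease resistance-responsive and isoflavone loci. Of 18 loci for lignin, dirigent and phenylpropanoid functions edgeR called 13 higher and 2 lower. The median log2 value of the list was 1.55. The number higher was 6 without control replicate 3, 5 without CO8-DA replicate 1 and 8 without CO8-DA replicate 3, and 1 was lower without any 1 library other than control replicate 3. The largest rise was at Psat7g117360, an isoflavone synthase of the phytoalexin branch. Its rounded counts summed to 2 over the control libraries against 64 over the treated ones, at a ratio of 27.2 (exact counting interval 7.22 to 229, edgeR adjusted p = 0.00654). Psat7g248720, described as dirigent protein 22-like, averaged 0.529 ± 0.137 CPM without and 7.54 ± 1.00 CPM with CO8-DA (SD, n = 3), or 3.8 on the log2 scale (edgeR adjusted p = 0.000399). Dirigent proteins steer the coupling of the phenolic radicals that peroxidases and laccases make. Both calls were made with any 1 library left out. Both loci had estimates that were not whole in 5 libraries, so their reads were divided with other loci. The isoflavone synthase Psat7g117880, also not whole in 5, went from 8.78 ± 7.14 to 76.0 ± 17.8 CPM (SD, n = 3). It was called in 2 of the 6 fits that leave 1 library out. The dirigent locus Psat7g248760, not whole in 5, went from 37.7 ± 20.7 to 187 ± 35.2 CPM (SD, n = 3), and was called in 4 of those fits.

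The laccase Psat7g242520, an oxidase that like peroxidases couples monolignols, was picked out after its values were seen. It rose from 23.8 ± 12.5 to 127 ± 42.3 CPM (SD, n = 3), or 2.41 on the log2 scale (edgeR adjusted p = 0.0155), a call that treated replicates 1 and 2 were each needed for (highest adjusted p without them 0.0638). The 2 lower loci were Psat3g198520, a caffeic acid O-methyltransferase of the monolignol route, at -1.87 (edgeR adjusted p = 0.0469), and Psat6g237920, a chalcone isomerase of the flavonoid branch, at -1.68 (edgeR adjusted p = 0.00177). The call of Psat3g198520 was lost in all fits that leave 1 library out except that without control replicate 3 (adjusted p up to 0.184). Both enzymes also had a locus called higher. These were the caffeic acid O-methyltransferase Psat3g198600 at 1.17 and the chalcone isomerase Psat6g238360 at 1.09 (edgeR adjusted p = 0.0152 and 0.0244). They were called in 3 and 2 of the 6 fits that leave 1 library out.

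Of 10 loci for enzymes that can yield oxidants, edgeR called 6 higher and 3 lower. The median log2 value of the list was 1.16. The largest rises were at germin family loci, cell wall proteins some of which form hydrogen peroxide from oxalate in cereals. Psat1g054680 averaged 0.981 ± 0.384 CPM without and 23.7 ± 1.47 CPM with CO8-DA (SD, n = 3), or 4.56 on the log2 scale (edgeR adjusted p = 0.000213). Psat0s26g0040 had 4.16 ± 2.55 CPM and 81.9 ± 20.1 CPM (SD, n = 3), or 4.28 on the log2 scale (edgeR adjusted p = 0.00166). Its estimates were off a whole number in each of the 6 libraries, so its reads were divided with other loci. The largest falls were at Psat3g140480, a respiratory burst oxidase that makes superoxide at the plasma membrane, with a log2 fold change of -2.34 (edgeR adjusted p = 0.00825), and at Psat6g112320, of the berberine bridge enzyme family, with -1.45 (edgeR adjusted p = 0.0101). These 4 calls were made with any 1 library left out. Both families of the falling loci also had loci called higher. The respiratory burst oxidase Psat3g011120 was at 1.03 (edgeR adjusted p = 0.0314), a call kept only without control replicate 1. Of the same family, Psat1g135640 was called lower at -1.37 (edgeR adjusted p = 0.0248), and Psat1g135680 at -1.14 was not called. The call of Psat1g135640 was kept in 2 of the 6 fits that leave 1 library out (adjusted p up to 0.0999). The berberine family loci Psat1g164920 and Psat1g166040 were called higher at 1.57 and 1.3 (edgeR adjusted p = 0.0155 and 0.000723). The call of Psat1g164920 was lost without any 1 of the CO8-DA libraries (adjusted p up to 0.0647), and that of Psat1g166040 was kept in all 6 fits.

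The loci whose log2 CPM followed each member most closely over the 6 libraries were sought by Pearson correlation. For Psat6g159360 these were Psat4g175520, Psat5g217720 and Psat0s32g0120 at r of 0.998 to 0.997, and for the identical pair Psat4g105080, Psat5g028960 and Psat5g274680 at r of 0.999. For Psat7g177240 they were Psat1g152800, Psat7g097760 and Psat7g082880 at r of 0.997 to 0.996, and for Psat7g177200 they were Psat7g016000, Psat6g026640 and Psat7g118200, all at r = 1.00 and without control counts. With 6 libraries in separate groups between 406 and 470 loci exceed an r of 0.95 with each member. Several of these partners, such as Psat4g175520 with a log2 fold change of 0.13, barely differed between the groups. Ranking by Spearman correlation or by CPM in place of log2 CPM kept none of these loci except 1 of those of Psat7g177200, so the likeness singles out no partner.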

How the data were processed

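Roots of pea were sequenced in 3 control and 3 CO8-DA libraries. The authors trimmed the paired reads (Trimmomatic 0.39), aligned them (bowtie2 2.4.4) to the pea genome v1a and deposited estimated counts per gene from RSEM 1.3.1, without normalization. Reads that fit several loci are divided by RSEM, so estimates off a whole number by 0.005 or more were read as shared. Libraries were assigned from the sample titles. Counts were rounded and tested with edgeR 4.0.16 in R 4.3.3 (TMM, filterByExpr, quasi-likelihood test, two-sided, Benjamini-Hochberg adjustment over 21293 loci). Alternatives were DESeq2 1.42.0, limma-voom (limma 3.58.1), other scalings, no filter, unrounded counts, subsets by read sharing, blocks and each library left out. The tools were tested on simulated data. Counts of libraries in a group differed beyond sampling noise (chi-square divided by its degrees of freedom, 12.4 or more). Intervals cover counting error only, on rounded counts summed over each group. They leave out variation between libraries and the division of reads between loci. Reads carry no molecular identifiers.

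The members and lists were chosen with earlier results of these data known. Lists were made by keyword from the study's descriptions of its changed genes, which came from DESeq2 on these samples. Named are all members, called neighbours within 10 places, up to 4 called loci of each list by size of change, and the 3 loci most like each member. Picked out after their values were seen were loci described like a named locus of the lignin or oxidant list, and Psat7g198640, the peroxidase with the highest level. The laccase Psat7g242520, the neighbour Psat7g177120 and the adjacent loci Psat7g229880 and Psat7g229840 were also picked out in this way. Descriptions are best database matches given by the study. Plots were made with matplotlib 3.10.9.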

Additional observations from a re-analysis of the deposited data

How the results depend on the processing

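The direction of the members' change was fixed by their choice, so only its size is given. With 2 settings a value moved beyond the spread between replicates with all libraries kept. A prior count of 1 gave Psat6g159360 a log2 fold change of 4.41, and the replicate block by library number, which rests on the numbers 3 and 4 that both groups share, gave Psat7g177240 6.09. With 1 library left out the log2 fold changes ranged from 4.69 to 6.01 for Psat6g159360, from 2.48 to 3.25 for the identical pair and from 3.97 to 5.73 for Psat7g177240. Low control counts limit the precision of these folds. The replicate block by the titles' numbers gave 5.12 for Psat6g159360, 3.02 for the pair and 4.55 for Psat7g177240. Libraries with the same title number deviated together at r of 0.226, 0.0449 and 0.151, and those with unlike numbers at r of -0.201 to 0.0869. Whether the title numbers stand for pairs was not tested, and the main fit did not take them as pairs.

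The number of loci called over the whole table was 666, with 561 higher and 105 lower. It was 371 to 943 with 1 library left out (338 to 778 higher, 33 to 165 lower) and 1094 under the block by library number (888 higher, 206 lower), and DESeq2 called 196 lower. Of the neighbours, 2 to 5 were called with 1 library left out, 2 when only loci with whole counts were kept and 1 within 5 places. For the other peroxidases 0 to 5 were higher and 3 to 9 lower with 1 library left out, and 6 were lower with limma-voom and 5 among whole loci. For the lignin and phenylpropanoid loci 5 to 14 were higher and 1 to 2 lower with 1 library left out, and 1 was lower with limma-voom and with the block by library number. Among whole loci they were 8 higher and 1 lower, and 1 oxidant locus was higher. With 1 library left out 4 to 6 oxidant loci were higher and 2 to 4 lower. The cause of these shifts was not tested. Some of these settings keep fewer loci or libraries.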

Other observations

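Peroxidase loci next to each other did not move together everywhere. Psat7g229880 and Psat7g229840, which lie 1 place apart on chromosome 7 and are both described as peroxidases, were called in opposite directions. Psat7g229880 had 43.3, 25.4 and 60.5 CPM in the control and 124, 104 and 135 CPM after CO8-DA, or 1.49 on the log2 scale (edgeR adjusted p = 0.025), a call lost without any 1 of the CO8-DA libraries (adjusted p up to 0.0931). Psat7g229840 had 7.05, 29.4 and 14.5 CPM in the control and 1.17, 0.188 and 0.512 CPM after CO8-DA. The pair was picked out after its values were seen. Control replicate 2 was lowest of its group at the rising locus and highest at the falling one.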
